A study of Sus scrofa with 20 samples.

Results

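Messenger RNA of the hypothalamus was compared between 5 crossbred (Iberian x Large White) males and 5 pure Iberian males, 10 of the 20 pigs of the series. The members are the male libraries of both breeds, chosen by their labels and by no measured value. All animals were 2 months old and none is labelled with a treatment. The other 10 libraries, 5 crossbred and 5 Iberian females of the same age, are used only where the difference in males was compared with that in females. The labels do not say which breed was the sire or the dam of the crossbred animals, and they name no litter or farm. Each library is labelled as a separate sample of its group, and the p-values measure the spread between these samples. The comparison of the breeds in males was made over all 10 and again without Iberian male 5, whose library held transcripts of the anterior pituitary. The comparison asks which hypothalamic transcripts differ between male pigs of a fat native breed and its cross with a lean breed.

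The hypothalamus lies directly above the pituitary gland and governs feeding, growth, stress and reproduction through peptides made by small groups of neurons. Iberian pigs are known for high appetite and fat deposition, and Large White pigs for lean growth. The tissue holds neurons together with myelinating oligodendrocytes, astrocytes and microglia, and the anterior pituitary beside it makes prolactin and the gonadotropins.

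Counts assigned to genes came to 1519979 to 2384615 per male library, which was 4.05 to 4.62% of all entries. The Y-linked gene EIF1AY had 1 to 7 counts in 8 of the 10 males, 0 in crossbred males 2 and 5, and 0 in each of the 10 females. Markers fixed for the hypothalamus (9 matched, among them AVP, OXT, HCRT, PMCH and AGRP) summed to 19.2 to 40.05 CPM (counts relative to library size, scaled between libraries with TMM) in the crossbred males, 18.9 to 40.3 in Iberian males 1 to 4 and 57.9 in Iberian male 5. The members did not move together in Iberian male 5. AVP (29.3 CPM) and OXT (11.6 CPM) were the highest there of the 10 males. HCRT (2.31 CPM) was the lowest, and PMCH had 0 counts in this male only. None of these markers was at 0 in every male. Of the 13 mitochondrial messengers, ND6 was counted most often in 10 of 10 males, with 21.8 to 141 times the counts of COX1. Entries without a feature were 80.2 to 88.1% in the males. The sources used here do not say whether the counting used strand, and the strand of the counted reads was not tested. For each gene, overlapping or not, it is therefore uncertain whether the counts are of its own messenger. The share of low-quality alignments was 5.33 to 5.59% in Iberian males 2 and 3 and 2.73 to 3.88% in the other 8 males.

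Iberian male 5 stood apart from the other 9 males. Its score on the leading principal component (37.4% of the variance) was 57.8, those of the rest were between -9.64 and -3.28, and 18.4% of the tested genes were more than 2-fold from the median of the other libraries, against 1.12 to 3.25% in each of those. It held 157 counts of prolactin (PRL), 163 of CGA (the alpha chain shared by the glycoprotein hormones) and 111 of FSHB (the beta chain of follicle-stimulating hormone). The highest counts of these in any other male were 4, 1 and 0. The 8 matched markers of the anterior pituitary summed to 361 CPM in Iberian male 5, to 3.59 to 6.96 in the crossbred males and to 6.29 to 8.66 in Iberian males 1 to 4. The chromogranin relative CHGB, a secretory granule protein, had 1448 counts there against a median of 189. ND6 took 23.7% of the gene counts there and 5.64 to 9.44% in the other 9 males. RUVBL2, an ATPase of chromatin remodelling complexes, had 26861 counts in Iberian male 5 (1.77% of its gene counts) against 146 to 682 in the other males and 116 to 205 in the females. The span of RUVBL2 (54250494 to 54263492) lies 82 bp from that of LHB, the beta chain of luteinizing hormone, on chromosome 6 of Sscrofa11.1. The part of this position in the count was not tested.

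**Figure D1:**
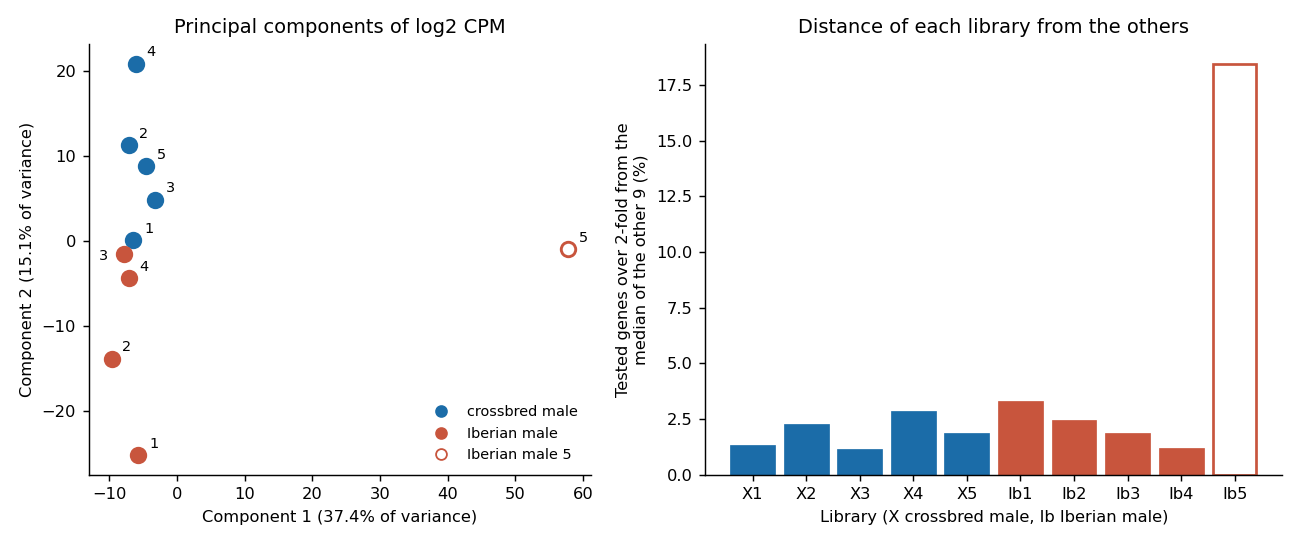
Left, the 10 male libraries on the first and second principal components of log2 CPM, with replicate numbers beside the points; right, the share of tested genes (%) more than 2-fold from the median of the other 9 males in each library, with crossbred males as X and Iberian males as Ib. Iberian male 5 (open) lies at 57.8 on the first component and at 18.4% in the bars, and the other males lie at 1.12 to 3.25%.

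Over all 10 males 2 of 6610 tested genes passed the threshold (edgeR quasi-likelihood test, Benjamini-Hochberg adjusted p below 0.05), which is 0.0303% of the genes. These were TBCD, higher in crossbred males, and ENSSSCG00000035000, lower. Without Iberian male 5 the count was 28 of 6869 genes (0.408%), both of the former among them, with 7 higher (0.102%) and 21 lower (0.306%) in crossbred males. At an unadjusted p below 0.05 there were 596 genes with Iberian male 5 and 917 without it. The biological coefficient of variation, a measure of spread between animals, was 0.199 with that library and 0.123 without it. The 5 crossbred values lay entirely above the 5 Iberian values for 52 genes (0.787%) and entirely below for 75 (1.13%). Against the 4 other Iberian males the counts were 141 (2.05%) and 146 (2.13%).

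The count of called genes rested on single libraries. From all 10 males it was 0 without Iberian male 4, and 1 without crossbred male 2, 3, 4 or 5 or without Iberian male 1 or 2. From the 9 males that exclude Iberian male 5, it was 64 without crossbred male 1, 53 without Iberian male 3 and 47 without Iberian male 4. It was 14 without crossbred male 2, 11 without crossbred male 4, 11 without Iberian male 2 and 7 without Iberian male 1. TBCD, CRISP1, GRPEL2 and ENSSSCG00000008677 passed in each of the 9 fits that left out 1 further library, and the other 24 genes lost the call in at least 1. Iberian male 1 was needed for 22 of the 28 calls, Iberian male 2 for 18, crossbred male 4 for 17 and crossbred male 2 for 16. Crossbred male 3 was needed for 11, crossbred male 5 for 9, Iberian male 4 for 6 and Iberian male 3 for 3. When the fit held a term for the 2 Iberian males above 4.5% low-quality alignments, 10 genes passed without Iberian male 5, and 6 of them were among the 28, namely TBCD, MTX1, CRISP1, PIGF, ENSSSCG00000008677 and ENSSSCG00000031599. As this term takes up Iberian males 2 and 3, the breed contrast of that fit rested on Iberian males 1 and 4 alone. In that fit GRPEL2 differed by -0.85 (edgeR adjusted p = 0.0609).

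TBCD (ENSSSCG00000017136), a cofactor that folds and assembles tubulin dimers, was higher in crossbred males. Its level was 36.9, 44.7, 37.9, 48.2 and 40.2 CPM in crossbred males 1 to 5 and 21.9, 13.7, 16.005, 15.6 and 18.5 CPM in Iberian males 1 to 5. Each crossbred male lay above each Iberian male, and Iberian male 5 lay within the range of its group. The means were 41.6 ± 4.79 and 17.2 ± 3.17 CPM (SD, n = 5 each), and 16.8 ± 3.56 over Iberian males 1 to 4. TBCD rose 2.43-fold (log2 1.28, SE 0.17, edgeR adjusted p = 0.00743), and 2.48-fold without Iberian male 5 (log2 1.31, SE 0.17, edgeR adjusted p = 9.27e-05). Without Iberian male 4 the log2 difference over the remaining 9 males was 1.24 (edgeR adjusted p = 0.0624). Among the 8 males with a share of low-quality alignments below 4.5% it was 1.17 (edgeR adjusted p = 0.183), and the males above that share were Iberian only, so they give no comparison of breeds. TBCD lies at 327009 to 449375 on chromosome 12 (Sscrofa11.1, RefSeq), in a span that also holds ZNF750. Its neighbour B3GNTL1, 589 bp away, differed by 0.84 on the log2 scale with Iberian male 5 and by 0.66 without it (edgeR adjusted p = 0.418), and did not pass.

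ENSSSCG00000035000 has no name in the tables used here. Its level was 41.8, 30.3, 27.4, 29.5 and 20.1 CPM in crossbred males 1 to 5 and 85.1, 95.5, 46.2, 68.4 and 104.2 CPM in Iberian males 1 to 5. The groups did not overlap, and Iberian male 5 held the highest value. It fell in crossbred males, by 1.41 as a log2 difference (SE 0.22, edgeR adjusted p = 0.0292), and by 1.29 without Iberian male 5 (SE 0.21, edgeR adjusted p = 0.0140). The call over 10 males was lost without any of crossbred males 2, 3, 4 and 5 and Iberian males 1, 2 and 4, with edgeR adjusted p up to 0.186 and a log2 difference between -1.57 and -1.29 over all fits that left out 1 male. Within the 8 males below 4.5% low-quality alignments it fell by 1.5 (SE 0.22, edgeR adjusted p = 0.0369).

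**Figure D2:**
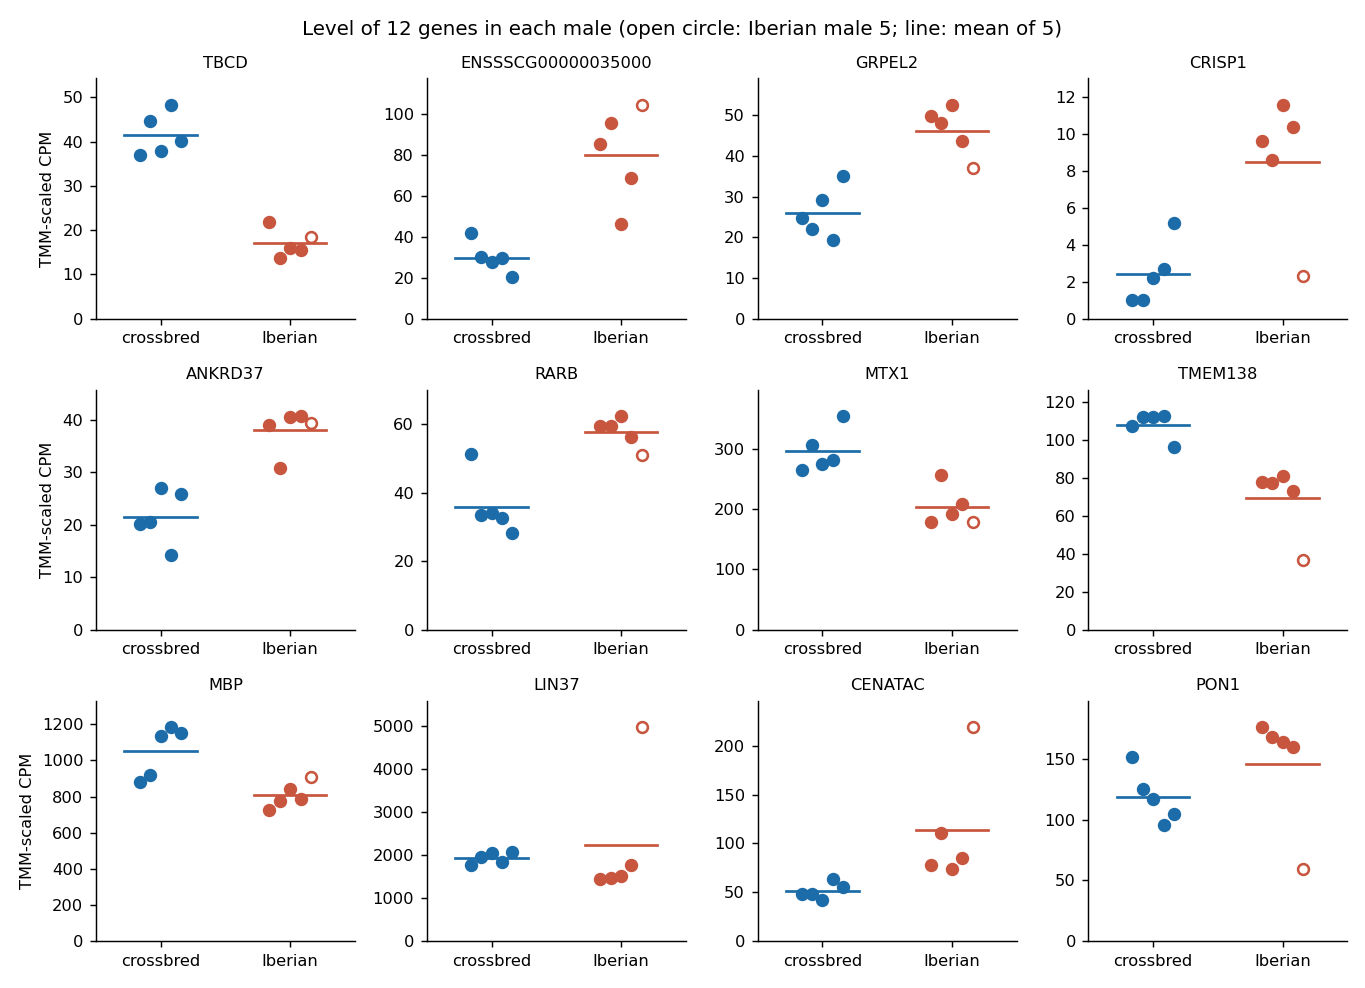
Level of 12 genes in each male as TMM-scaled CPM, with crossbred males in blue, Iberian males in red, Iberian male 5 as an open circle and the mean of 5 as a line; each axis starts at 0. TBCD lies at 36.9 to 48.2 in crossbred and 13.7 to 21.9 in Iberian males, whereas the open circle of LIN37 lies at 4964 against 1441 to 1763 in the other Iberian males.

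The other 26 called genes did not pass over the 10 males and passed without Iberian male 5. GRPEL2 also passed for males in the fit of all 20 libraries, Iberian male 5 included (edgeR adjusted p = 0.0357). In all 28 the 5 crossbred and the 4 Iberian values did not overlap, and with Iberian male 5 added 15 of 28 were still free of overlap. Over all genes tested, 2.05% were higher and 2.13% lower without overlap against the 4 Iberian males. With Iberian male 5 these shares were 0.787 and 1.13%. Genes that pass the threshold tend to be free of overlap, so these counts are a description. Iberian male 5 lay within the range of the other Iberian males for 6 of the 28 genes, below it for 18 and above it for 4. For 13 it reached the crossbred range or lay beyond it. The same split over all tested genes was not made. As 26 of the 28 did not pass with Iberian male 5 among the 10 males, these counts follow in part from that choice of genes. The sign of the difference was the same with that library in 27 of 28, LIN37 being the exception. The median level was 179 CPM among the 7 higher and 100 CPM among the 21 lower genes, against 15.9 CPM over all genes tested, though CRISP1 and ENSSSCG00000029291 lay below the latter. Of the 20 called genes with a RefSeq position, 16 (80%) overlapped another annotated gene, against 2522 of 5484 (46.0%) of all tested genes with a position. The overlapping genes that were tested themselves, 11 around the genes named here, did not pass the threshold in either fit.

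**Figure D3:**
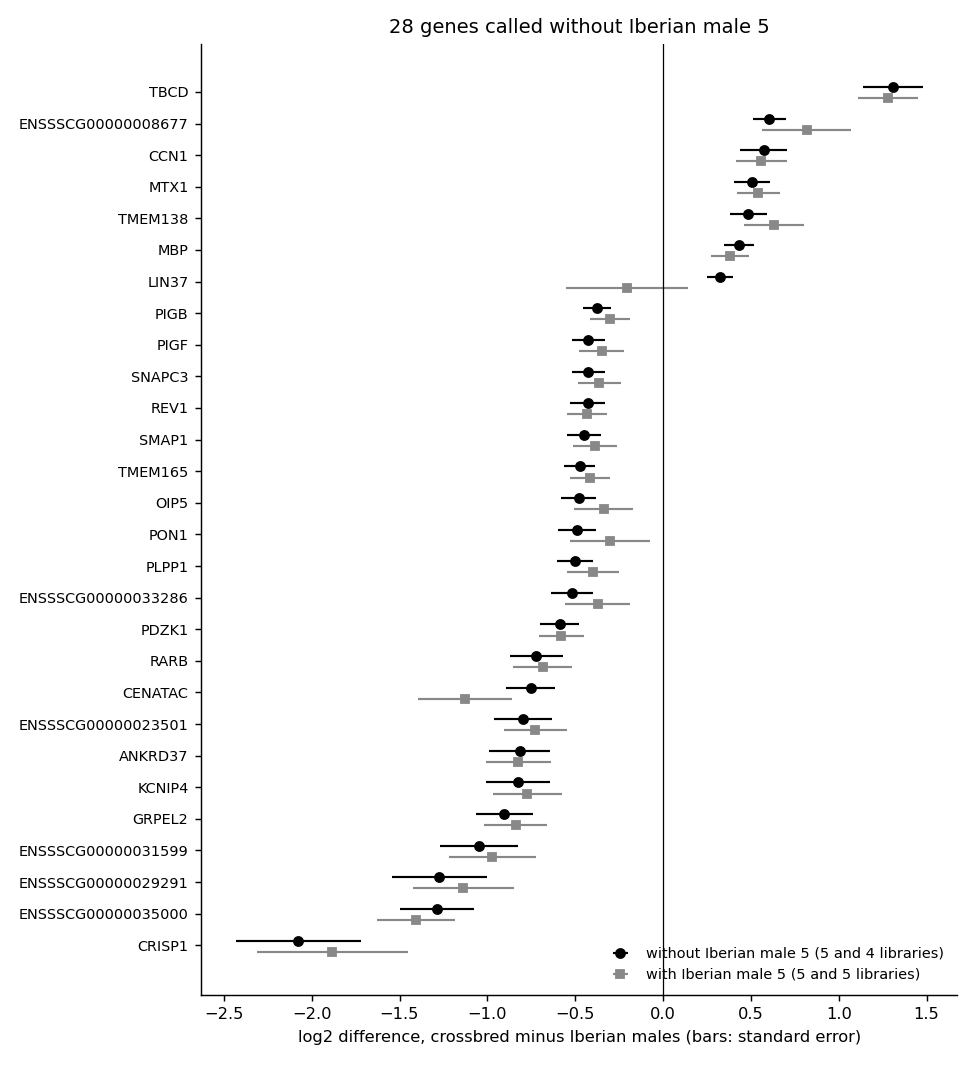
The log2 difference, crossbred minus Iberian males, of the 28 genes that passed without Iberian male 5, as black circles for 5 against 4 libraries and grey squares for 5 against 5, with bars for the standard error. The 2 values lie close for TBCD (1.31 and 1.28), and LIN37 moves from 0.32 to -0.21.

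The called genes are described in the order of their known roles, which were assigned after their values were seen, and all later differences are on the log2 scale. GRPEL2 (ENSSSCG00000014432), a nucleotide exchange factor of the mitochondrial HSP70 chaperone in human cells, measured 24.6, 22.1, 29.1, 19.2 and 35.0 CPM in crossbred males 1 to 5. In Iberian males 1 to 5 it measured 49.8, 48.0, 52.5, 43.7 and 37.0 CPM. The groups did not overlap, and Iberian male 5 was the lowest Iberian value. Without Iberian male 5, GRPEL2 fell by 0.90 in log2 terms (SE 0.16, edgeR adjusted p = 0.00666), and the value was -0.84 with it (SE 0.18, edgeR adjusted p = 0.371). It spans 150510520 to 150520013 on chromosome 2 and overlaps IL17B, whose difference was 0.06 with and -0.09 without Iberian male 5.

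MTX1, metaxin 1 of the outer mitochondrial membrane, measured 264.8, 306.5, 275.4, 281.9 and 353.9 CPM in crossbred males 1 to 5 and 179.2, 257.4, 192.5, 208.6 and 179.0 in Iberian males 1 to 5. It rose by 0.50 (SE 0.10, edgeR adjusted p = 0.0176) without Iberian male 5, and differed by 0.54 with it (edgeR adjusted p = 0.371). Iberian male 2 came closest to the crossbred range. Over the list of mitochondrial import and chaperone genes 5 of 12 tested members were fitted higher and 7 lower without Iberian male 5, with a median of -0.07 against 0.02 over all genes, and GRPEL2 was the only call; MTX1 is not in that list. TOMM70, an import receptor, had a log2 difference of -0.37 (edgeR adjusted p = 0.214), and PMPCA, a presequence peptidase subunit, 0.16 (edgeR adjusted p = 0.509). With Iberian male 5 these were -0.42 and 0.33 (edgeR adjusted p = 0.449 and 0.641).

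CRISP1 (ENSSSCG00000001739), a secretory protein best known from the epididymis, had the steepest fall among the called genes and was scarcely counted. It measured 0.985, 1.03, 2.18, 2.68 and 5.16 CPM in crossbred males 1 to 5 and 9.63, 8.58, 11.6 and 10.4 CPM in Iberian males 1 to 4. Iberian male 5 held 2.31 CPM, inside the crossbred range. Without Iberian male 5, CRISP1 fell by 2.08 in log2 terms (SE 0.36, edgeR adjusted p = 0.00481), with 2.41 ± 1.71 CPM in crossbred males (SD, n = 5) and 10.04 ± 1.26 in Iberian males 1 to 4. With it the value was -1.88 (SE 0.43, edgeR adjusted p = 0.371).

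PIGF and PIGB, which add parts of the glycosylphosphatidylinositol anchor of surface proteins, were both called, and both are named here after their values were seen. PIGB measured 464.7, 418.0, 445.9, 364.1 and 424.5 CPM in crossbred and 612.6, 553.0, 516.6, 515.9 and 408.9 CPM in Iberian males 1 to 5, a fall of 0.37 without Iberian male 5 (SE 0.08, edgeR adjusted p = 0.0213). PIGF fell by 0.43 (SE 0.09, edgeR adjusted p = 0.0268), from 470 ± 75.9 CPM in Iberian males 1 to 4 to 349 ± 31.1 in crossbred males. With Iberian male 5, at 409 CPM for PIGB and 341 for PIGF, the groups overlapped for both, and the differences were -0.30 and -0.35 (edgeR adjusted p = 0.449 for each).

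TMEM165, a Golgi protein needed for glycosylation, measured 240.7, 219.2, 221.9, 188.5 and 224.3 CPM in crossbred males and 347.2, 307.1, 293.9, 270.5 and 242.2 in Iberian males 1 to 5. It fell by 0.47 (SE 0.09, edgeR adjusted p = 0.0104) without Iberian male 5, and the groups did not overlap with it either (log2 -0.42, edgeR adjusted p = 0.371). The call was lost without Iberian male 1 (edgeR adjusted p = 0.0617). TMEM165 overlaps CLOCK, a core gene of the circadian clock, whose difference was -0.08 without and -0.39 with Iberian male 5 (edgeR adjusted p = 0.920 and 0.718). SMAP1, which acts on the small GTPase ARF6 in endocytosis, fell by 0.45 (SE 0.10, edgeR adjusted p = 0.0226), with 221.5, 210.0, 197.5, 163.1 and 157.2 CPM in crossbred males and 242.4, 266.5, 253.4, 277.9 and 200.6 in Iberian males 1 to 5. Iberian male 5 lay within the crossbred range, and with it SMAP1 differed by -0.39 (edgeR adjusted p = 0.387).

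PLPP1, a phosphatase of lipid messengers, measured 154.1, 155.1, 157.1, 113.9 and 145.1 CPM in crossbred males and 232.2, 207.6, 205.4, 177.9 and 131.2 in Iberian males 1 to 5. It fell by 0.50 (SE 0.10, edgeR adjusted p = 0.0174) without Iberian male 5, whose value lay within the crossbred range, and differed by -0.40 with it (edgeR adjusted p = 0.449). PON1, paraoxonase 1, an enzyme carried on high-density lipoprotein in blood, measured 151.6, 125.3, 116.6, 95.6 and 104.4 CPM in crossbred males and 176.0, 168.1, 164.1, 160.1 and 59.4 in Iberian males 1 to 5. Iberian male 5 was the lowest of all males. It fell by 0.49 (SE 0.11, edgeR adjusted p = 0.0302) without that library and differed by -0.30 with it. PDZK1, a scaffold for membrane transporters, measured 86.6, 94.5, 111.8, 76.4 and 79.7 CPM in crossbred males and 146.6, 137.8, 125.4, 132.9 and 129.6 in Iberian males 1 to 5, without overlap. It fell by 0.59 (SE 0.11, edgeR adjusted p = 0.0108) without Iberian male 5, and that call was lost without Iberian male 1 (edgeR adjusted p = 0.0518). With Iberian male 5 its difference was -0.58 (edgeR adjusted p = 0.371).

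RARB, retinoic acid receptor beta, measured 51.2, 33.4, 33.9, 32.6 and 28.1 CPM in crossbred males and 59.4, 59.5, 62.2, 56.3 and 50.9 in Iberian males 1 to 5. Crossbred male 1 lay close to the Iberian males and Iberian male 5 lay just below it. RARB fell by 0.72 (SE 0.15, edgeR adjusted p = 0.0200) without Iberian male 5 and differed by -0.69 with it (edgeR adjusted p = 0.371). CENATAC, a component of the minor spliceosome, measured 48.2, 47.8, 41.8, 63.9 and 55.1 CPM in crossbred males and 78.1, 110.4, 74.2, 84.8 and 219.1 in Iberian males 1 to 5. Iberian male 5 lay far above the rest. It fell by 0.75 (SE 0.14, edgeR adjusted p = 0.00880) without that library, and its difference was -1.13 with it. That call was lost without Iberian male 2 (edgeR adjusted p = 0.0670).

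OIP5, which takes part in loading the centromere histone, fell by 0.48 (SE 0.10, edgeR adjusted p = 0.0165) without Iberian male 5. It measured 218.6, 203.3, 191.0, 159.5 and 205.3 CPM in crossbred males and 313.5, 287.7, 247.6, 245.0 and 139.6 in Iberian males 1 to 5, the last being the lowest of all. SNAPC3, of the complex that transcribes small nuclear RNAs, fell by 0.43 (SE 0.09, edgeR adjusted p = 0.0422), and REV1, a DNA polymerase that copies past damage, fell by 0.43 (SE 0.10, edgeR adjusted p = 0.0344). SNAPC3 and REV1 are also named after their values were seen. REV1 measured 124.6 to 167.4 CPM in crossbred and 185.2 to 209.3 in all 5 Iberian males. With Iberian male 5 the differences were -0.34 for OIP5, -0.36 for SNAPC3 and -0.43 for REV1 (edgeR adjusted p = 0.571, 0.393 and 0.371).

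LIN37, a subunit of a complex that represses cell cycle genes, changed sign with Iberian male 5. It measured 1765, 1944, 2047, 1827 and 2062 CPM in crossbred males and 1441, 1455, 1508, 1763 and 4964 in Iberian males 1 to 5. Crossbred male 1 and Iberian male 4 were nearly level. LIN37 rose by 0.32 (SE 0.07, edgeR adjusted p = 0.0306) in crossbred males without Iberian male 5 and differed by -0.21 (SE 0.35, edgeR adjusted p = 0.878) with it.

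Among genes of neurons, glia and the cell surface, KCNIP4, a calcium sensor bound to potassium channels, measured 19.7, 14.9, 26.1, 17.0 and 23.5 CPM in crossbred males. In Iberian males 1 to 5 it measured 40.1, 44.0, 32.0, 29.0 and 27.8 CPM. It fell by 0.83 (SE 0.18, edgeR adjusted p = 0.0248) without Iberian male 5, and the groups did not overlap in either set. With that library the difference was -0.77 (edgeR adjusted p = 0.371).

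MBP, myelin basic protein of oligodendrocytes, measured 880.7, 918.6, 1133, 1183 and 1153 CPM in crossbred males and 727.1, 775.5, 841.2, 787.7 and 910.4 in Iberian males 1 to 5. It rose by 0.43 (SE 0.08, edgeR adjusted p = 0.0165) without Iberian male 5, which alone reached the crossbred range, and differed by 0.38 with it (edgeR adjusted p = 0.371). In these tissue samples fewer cells of a type and less RNA per cell cannot be told apart. The 7 matched oligodendrocyte markers, none at 0 in every male, summed to 1653 to 1915 CPM in crossbred males. They summed to 1441 to 1612 in Iberian males 1 to 4 and 1413 in Iberian male 5. MBP was the largest single part of each sum. Without MBP the other 6 summed to 721.5 to 781.8, 713.7 to 791.5 and 503.0 CPM, so that the breeds overlapped. Of the 7, 3 were fitted higher without Iberian male 5 (median -0.02) and 5 with it (median 0.16), and MBP was the only call. MAG, which holds myelin to the axon, differed by 0.30 without and 0.35 with Iberian male 5 (edgeR adjusted p = 0.349 and 0.498). MOG, a protein of the outer myelin surface named after its values were seen, differed in the opposite direction, by -0.38 and -0.28 (edgeR adjusted p = 0.333 and 0.679). CNP, CLDN11 and ERMN were also fitted lower without Iberian male 5, at -0.02, -0.05 and -0.18. The part of the number of oligodendrocytes in the value of MBP was not tested.

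CCN1, a secreted matrix protein, measured 75.8, 84.2, 89.2, 84.9 and 59.7 CPM in crossbred males and 57.8, 57.8, 44.5, 53.2 and 54.8 in Iberian males 1 to 5. It rose by 0.57 (SE 0.13, edgeR adjusted p = 0.0420) without Iberian male 5, crossbred male 5 lying just above the Iberian males, and differed by 0.56 with it (edgeR adjusted p = 0.371). TMEM138, a membrane protein of primary cilia, measured 107.3, 111.9, 112.2, 112.6 and 96.4 CPM in crossbred males and 78.1, 77.2, 80.9, 73.1 and 37.0 in Iberian males 1 to 5. The groups were well apart, and Iberian male 5 lay far below the others. TMEM138 rose by 0.49 (SE 0.11, edgeR adjusted p = 0.0269) without Iberian male 5 and differed by 0.63 with it (edgeR adjusted p = 0.371).

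ANKRD37, known as a target of the hypoxia-inducible factor, was lower in crossbred males. It measured 20.2, 20.5, 27.0, 14.3 and 25.8 CPM in crossbred males and 39.1, 30.9, 40.5, 40.7 and 39.3 in Iberian males 1 to 5. Iberian male 5 lay within the other Iberian males and the groups did not overlap. ANKRD37 fell by 0.82 without Iberian male 5 (SE 0.17, edgeR adjusted p = 0.0213), and the value with it was -0.82 (SE 0.18, edgeR adjusted p = 0.371).

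The remaining 5 called identifiers have no name in the tables used here and are given after their values were seen. ENSSSCG00000008677 measured 199.4, 205.9, 194.0, 213.1 and 242.1 CPM in crossbred males and 128.9, 155.0, 144.0, 127.2 and 38.6 in Iberian males 1 to 5. It rose by 0.61 (SE 0.10, edgeR adjusted p = 0.00172) without Iberian male 5, which lay far below the rest, and differed by 0.82 with it (edgeR adjusted p = 0.371). ENSSSCG00000023501, ENSSSCG00000029291, ENSSSCG00000031599 and ENSSSCG00000033286 fell. Their log2 differences without Iberian male 5 were -0.80, -1.27, -1.05 and -0.52, in that order. The edgeR adjusted p of these falls ran from 0.0176 to 0.0351. With Iberian male 5 the differences were -0.73, -1.14, -0.97 and -0.37.

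Among the 21 lower genes, Iberian male 1 held the highest value of the 9 males in 11 and crossbred male 4 the lowest in 10. The same libraries were the extremes of the first principal component over the 9 males (24.1% of the variance), at 25.2 and -20.9. Their part in the calls is given by the fits without each of them, 7 and 11 genes.

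CPSF7, SGCA, WDR45B, UQCRC2, EXOSC9 and CETN3 passed in neither fit and had the smallest unadjusted p-values over 10 males among the other genes with a symbol, 3 in each direction. CPSF7, which acts in cleaving the end of messengers, differed by 0.49 with and 0.41 without Iberian male 5 (edgeR adjusted p = 0.371 and 0.0834). CPSF7 lies 21937 bp from TMEM138 on chromosome 2. SGCA, a sarcoglycan, measured 106.3, 51.3, 57.0, 92.9 and 65.4 CPM in crossbred and 56.7, 36.6, 23.6, 24.2 and 11.6 in Iberian males 1 to 5, with overlap through Iberian male 1 and a log2 difference of 1.27 with and 1.10 without Iberian male 5 (edgeR adjusted p = 0.371 and 0.209). WDR45B, an autophagy protein encoded at 522762 to 547333 on the same chromosome as TBCD, differed by 0.69 with and 0.71 without Iberian male 5 (edgeR adjusted p = 0.371 and 0.105). UQCRC2, a core subunit of respiratory complex III, had a difference of -0.91 with and -0.82 without it. The values were -0.82 and -0.76 for EXOSC9, a subunit of the RNA exosome, and -1.26 and -1.10 for CETN3, a centrosome protein.

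Mitochondrially encoded messengers lay lower in crossbred males as a list. All 13 were fitted lower in both sets, with a median of -0.34 with and -0.37 without Iberian male 5 against -0.01 and 0.02 over all genes tested. In each set 8 of 13 were lower at an unadjusted p below 0.05 and 0 passed the adjusted threshold. Over all genes that count of lower genes was 415 of 6610 with and 552 of 6869 without Iberian male 5. The 13 were measured in the same animals and are not independent observations. Crossbred male 5 held the lowest crossbred value of each of the 13, and the list was not recomputed without that male. As for every gene here, it is uncertain whether these counts are of the genes' own messengers. In females 12 of 13 were fitted lower (median -0.16). Of the genes with the smallest p, ATP6, of the ATP synthase, differed by -0.42 and -0.36, and ND3 and ND5, of complex I, by -0.49 each with and -0.39 and -0.37 without Iberian male 5 (edgeR adjusted p = 0.371 for the 3 genes with it). Without ND6 the other 12 took 3.25, 3.21, 3.04, 2.83 and 2.15% of gene counts in crossbred males 1 to 5 and 3.26, 4.11, 3.54, 3.91 and 3.71% in Iberian males 1 to 5. The groups met at crossbred male 1 and Iberian male 1. The nuclear genes of the respiratory chain had a median of 0.00 with and 0.06 without Iberian male 5, with 14 of 21 fitted higher in the latter and 0 called.

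The hypoxia list had 7 of 8 tested members fitted lower with Iberian male 5 (median -0.20) and 6 of 8 without it (median -0.26), ANKRD37 being the only call. DDIT4, a stress-induced inhibitor of MTOR, had a difference of -0.31 without Iberian male 5 (edgeR adjusted p = 0.405), and EGLN1, which marks the hypoxia-inducible factor for breakdown, -0.31 (edgeR adjusted p = 0.444). With Iberian male 5 these were -0.24 and -0.23. EPAS1, a hypoxia-inducible factor named after its values were seen, was fitted higher, by 0.56 without and 0.28 with Iberian male 5 (edgeR adjusted p = 0.191 and 0.749), and its groups did not overlap without that library. The summed level of the 15 matched hypoxia genes was 121.5 to 162.3 CPM in crossbred, 168.7 to 179.2 in Iberian males 1 to 4 and 175.1 in Iberian male 5. Without ANKRD37 the other 14 summed to 107.2 to 135.3, 128.5 to 138.7 and 135.8 CPM, and the breeds overlapped.

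Tubulins and their folding factors had 12 of 17 tested members fitted higher in both sets (median 0.06 with and 0.11 without Iberian male 5), and TBCD was the only call. TUBB2B, a neuronal beta tubulin, differed by 0.26 and 0.23, and CCT4, of the cytosolic chaperonin, by -0.90 and -0.49.

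Other lists moved with Iberian male 5. Of the 29 lists with at least 4 tested members, 11 changed the sign of their median when that library was left out, and 13 lay within 0.1 of 0 in both sets. Prohormone processing genes had 3 of 11 fitted higher with it (median -0.15) and 8 of 11 without it (median 0.12). Their summed level was 2236 CPM in Iberian male 5 against 724.9 to 894.3 in the other 9 males. Cytosolic ribosome genes went from 8 to 15 of 18 fitted higher, and neuron markers from 2 to 6 of 7. No member of these 3 lists passed the threshold. Astrocyte markers had a median of 0.10 with and 0.11 without Iberian male 5 and microglia markers -0.08 and 0.07, also with 0 calls. Fatty acid and cholesterol synthesis, insulin and leptin signalling, the growth axis, the circadian clock and the interferon response gave 0 calls in either set.

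**Figure D4:**
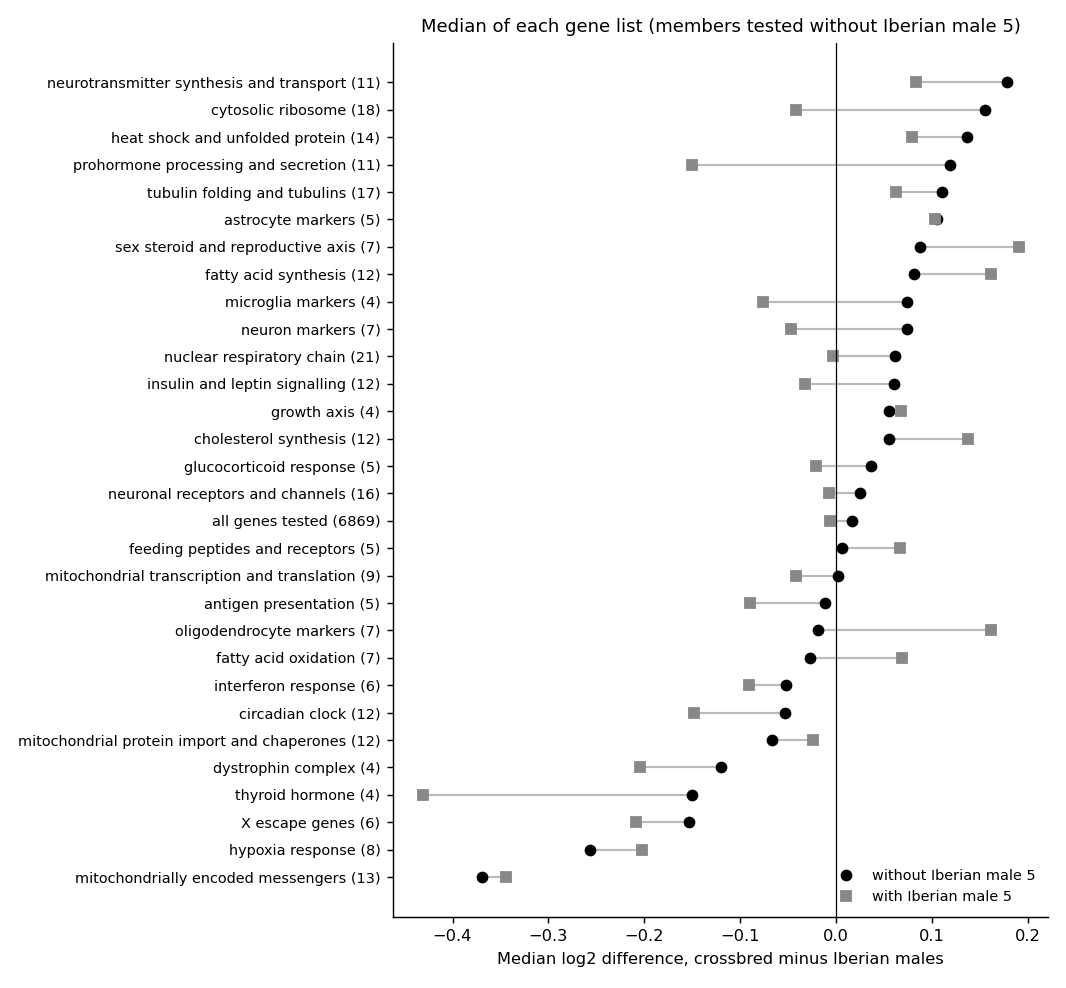
Median log2 difference, crossbred minus Iberian males, of each gene list with at least 4 tested members, as black circles without and grey squares with Iberian male 5; the number of members tested without it stands in brackets. The mitochondrially encoded messengers lie lowest without Iberian male 5, at -0.37, and prohormone processing moves from -0.15 to 0.12.

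Most of the peptides through which the hypothalamus acts were little counted, and none passed. Vasopressin (AVP) measured 9.01 ± 7.24 CPM in crossbred and 12.97 ± 10.3 in Iberian males (SD, n = 5 each), with a log2 difference of -0.45 with and 0.00 without Iberian male 5. Its counts ran from 6 to 38 per male. Hypocretin (HCRT), which sustains wakefulness and feeding, differed by 0.06 and -0.13, and galanin (GAL) by -0.08 and 0.48. Iberian male 5 held 2.31 CPM of HCRT and 17.7 of GAL. The enkephalin precursor PENK differed by -0.16 and -0.19, and the dynorphin precursor PDYN by -0.30 and -0.27.

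ADCYAP1, the precursor of the peptide PACAP, measured 38.8 ± 4.46 CPM in crossbred males and 53.6 ± 8.52 in Iberian males 1 to 4. Its difference was -0.33 with and -0.47 without Iberian male 5 (edgeR adjusted p = 0.638 and 0.116). OXT (0 to 15 counts per male), NPY (5 to 15), PMCH (0 to 14), SST (2 to 6), AGRP (0 to 4), CARTPT (0 to 5) and the estrogen receptor ESR1 (0 to 4) were below the count filter and were not tested. POMC and TRH were not analysed here.

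The breed difference in males was compared with that in females in 1 fit of all 20 libraries. GRPEL2 was the only 1 of 7090 tested genes (0.0141%) for which the 2 differences differed past the threshold. The difference in males minus that in females was -1.28 (SE 0.23, edgeR adjusted p = 0.0268), and -1.33 without Iberian male 5 (edgeR adjusted p = 0.00300). Females measured 39.3, 37.9, 45.9, 35.8 and 42.0 CPM in crossbred animals 1 to 5 and 28.4, 28.9, 25.3, 36.8 and 28.3 in Iberian animals 1 to 5, scaled over 20 libraries. The order of the breeds was thus the opposite of that in males, with Iberian female 4 alone reaching the crossbred females. The female difference was 0.43 (SE 0.16, edgeR adjusted p = 0.740) and did not pass by itself. The share of low-quality alignments was 3.57 to 3.76% in crossbred and 5.41 to 5.92% in Iberian females. In females breed and this share cannot be told apart, which bears on every female difference and on the test between the sexes. The test of the difference held in 7 of 20 fits that left out 1 library, with edgeR adjusted p up to 0.103. It was lost without crossbred males 1, 2 and 4, Iberian males 1, 2 and 3, crossbred females 1, 3 and 5, and Iberian females 1, 2, 3 and 5. At an unadjusted p below 0.05 there were 593 genes.

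**Figure D5:**
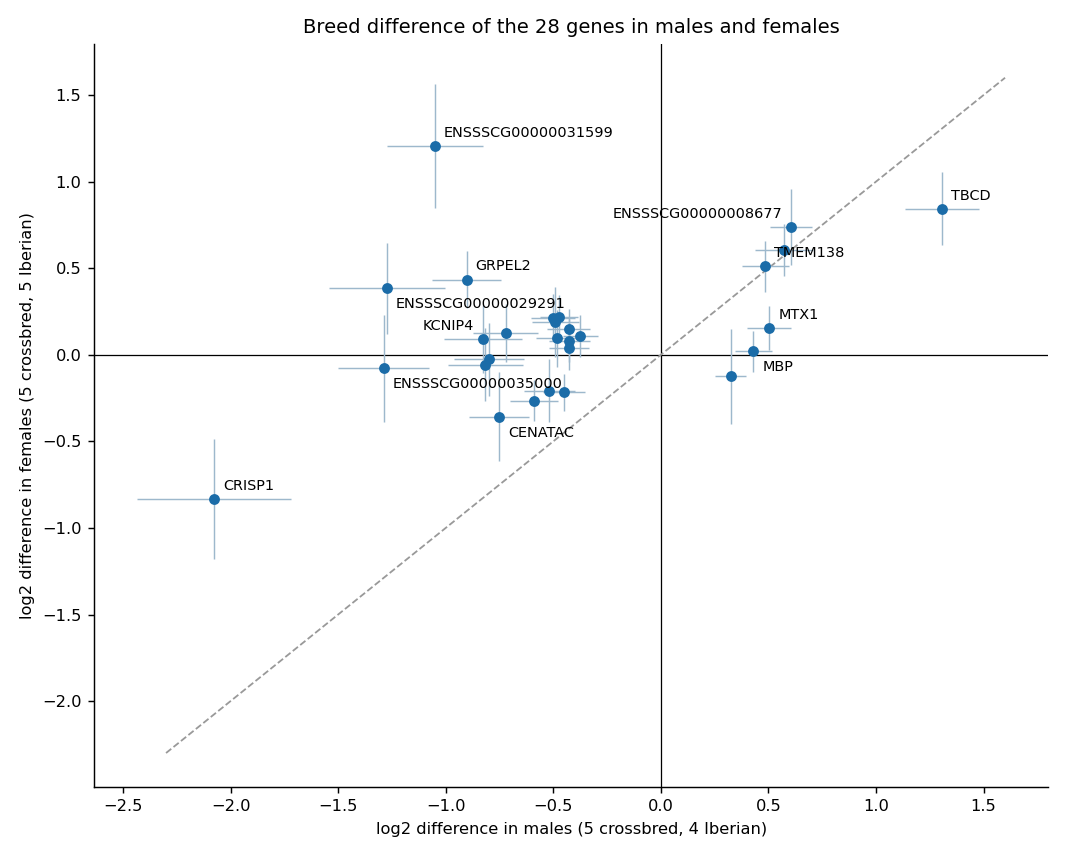
The log2 difference between breeds in females (5 against 5) against that in males without Iberian male 5 (5 against 4) for the 28 genes called there, with bars for the standard errors and a dashed line of equal values. TBCD lies at 1.31 in males and 0.84 in females, and GRPEL2 at -0.90 and 0.43.

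Of the 28 genes called in males without Iberian male 5, 14 (50%) had the same sign in females, against 47.4% of the 6766 genes tested in both. Among the 7 higher genes 6 were also fitted higher in females, and among the 21 lower genes 8 were also fitted lower. The sex-dependent part had an unadjusted p below 0.05 for 17 of the 28 genes (60.7%, against 8.42% of all); as these genes were chosen in males, that share is a description. TMEM138 measured 93.9 to 104.8 CPM in crossbred and 59.0 to 82.8 in Iberian females, without overlap (log2 0.51, SE 0.15, edgeR adjusted p = 0.473). ENSSSCG00000008677 measured 182.0 to 262.5 in crossbred and 102.6 to 153.5 in Iberian females, also without overlap (log2 0.74, SE 0.22, edgeR adjusted p = 0.567).

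TBCD measured 52.6, 18.1, 38.8, 53.2 and 30.7 CPM in crossbred females 1 to 5 and 17.9 to 24.2 in Iberian females. Crossbred female 2 lay among the Iberian females and the other 4 above them (log2 0.84, SE 0.21, edgeR adjusted p = 0.298), and the difference between the sexes was 0.44 (SE 0.30, edgeR adjusted p = 0.695). CCN1 differed by 0.60 in females (SE 0.15, edgeR adjusted p = 0.298), CRISP1 by -0.83 (SE 0.35) and ENSSSCG00000035000 by -0.08 (SE 0.31). ENSSSCG00000031599 had a difference of 1.21 in females (SE 0.36, edgeR adjusted p = 0.567) against -1.05 in males. MBP and ANKRD37 were near level in females, at 0.02 and -0.06. None of these passed in females or in the test between the sexes.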

How the data were processed

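Messenger RNA of the hypothalamus was sequenced as paired reads of 76 bases, with RNA integrity numbers of 7.8 to 9.8, per the labels. The build Sscrofa11.1 and the tools HISAT2, HTSeq, Trim Galore, FastQC and DESeq2 are named in the submitters' processing notes; versions, strand use and annotation release are not given in the sources used here. The authors deposited whole-number counts, not normalized, for 25880 genes in each animal. The 5 summary lines were left out; no feature took 80.2 to 88.1% of entries, not unique 3.89 to 9.50%, low quality 2.73 to 5.59%, not aligned 0.548 to 0.665% and ambiguous 0.0864 to 0.121%. Symbols matched 57.4% of identifiers, and positions came from RefSeq by unique symbol.

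The main test was edgeR 4.0.16 (R 4.3.3): TMM scaling, a filter by expected counts (minimum 10, total 15), robust quasi-likelihood fits and a Benjamini-Hochberg threshold of 0.05, on the 10 males and without Iberian male 5. The test between sexes used all 20 libraries. CPM values are scaled counts, given as mean and SD. The test was tried on simulated data. Of 20 pairs of libraries within the male groups, none was a repeat within sampling noise (chi-square per degree of freedom 2.45 to 73.8). Gene lists (38 lists, 622 entries) and members were chosen with earlier results of these data known, and lists were not tested. Named genes are those called over 10 males, the 12 largest rises and falls with a symbol among those called without Iberian male 5, the smallest p until 24 symbols were reached, up to 3 members of each described list and 16 fixed hypothalamic genes. Some genes that this rule names are not reported here.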

Additional observations from a re-analysis of the deposited data

Results flagged for a closer look

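Over the named genes and library measures, 76 groups of 5 libraries were checked for a library far from the other 4 (Dixon's ratio above 0.71), and 11 (14.5%) held one, of which 7 were Iberian male 5. Chance gives such a library in about 1 of 20 groups when the groups are chosen without regard to their values. Most of these genes were named because they passed only without Iberian male 5, so that rate is no baseline here. In Iberian male 5, TMEM138 measured 37.0 CPM against 73.1 to 80.9 in the other Iberian males, LIN37 4964 CPM against 1441 to 1763, CENATAC 219.1 CPM against 74.2 to 110.4, PON1 59.4 CPM against 160.1 to 176.0, CPSF7 61.7 CPM against 86.2 to 91.5 and ENSSSCG00000008677 38.6 CPM against 127.2 to 155.0. ND6 took 23.7% of the gene counts in that library against 5.64 to 9.44% in the other Iberian males. The cause of these values was not tested.

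Of the other libraries, only Iberian male 2 and crossbred males 1, 3 and 4 were far from their groups, in 1 gene each. ANKRD37 measured 30.9 CPM in Iberian male 2 against 39.1 to 40.7. RARB measured 51.2 CPM in crossbred male 1 against 28.1 to 33.9, PLPP1 113.9 CPM in crossbred male 4 against 145.1 to 157.1, and ENSSSCG00000029291 3.05 CPM in crossbred male 3 against 5.13 to 5.91.

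The breed difference of GRPEL2 in males minus that in females was -1.28 on the log2 scale (edgeR adjusted p = 0.0268), the 1 gene for which the test between the sexes passed.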

How the results depend on the processing

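Over all 10 males 2 genes passed with RLE scaling, a filter at 1 CPM, no robust estimation, the mitochondrial messengers left out and all 20 libraries in the fit. DESeq2 gave 9, limma voom 6, no filter 20, the replicate number as a block 0, the low-quality split as a term 0 and the libraries below 4.5% low-quality alignments 1. Leaving out 1 library gave 0 to 28. With all 20 libraries the lower gene was GRPEL2. LIN37 differed by 0.25 with limma voom and by -0.33 to 0.32 when 1 library was left out, against -0.21. Without Iberian male 5, alternatives to its 28 genes chosen after seeing the data were no filter (168), no robust estimation (16), the replicate block (85), the other 19 libraries in 1 fit (7) and leaving out 1 further library (7 to 64); DESeq2 gave 124, limma voom 7 and the low-quality term 10. For the test between the sexes, against 1 gene, DESeq2 gave 2, the replicate block 0 and leaving out 1 library 0 to 1. The cause of these shifts was not tested. Of 5 same-numbered pairs of males, 1 had a correlation above 0.1 (-0.06 to 0.12) and 2 had their own number as best match. The deviations were taken from group means that included Iberian male 5, so this check cannot decide whether the numbers pair the males. CRISP1 and the peptides other than ADCYAP1 had few counts per library, which limits their comparison. ADCYAP1 had 35 to 140 counts per male. Of all entries 4.05 to 4.62% were assigned to genes in the males, and the cause of the low counts was not tested.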
